A study of Mus musculus with 1536 samples.

Results

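The cadherins and the non-clustered protocadherins of single serotonin neurons are described here. The members are all symbols of the deposited expression table made of Cdh or Pcdh, a number and at most an x. There were 35 of these among 53263 symbols. Of the 35, 29 had a read in at least 3 cells, and 24 reached a mean of 1 CPM (reads of the gene per 1000000 reads on genes) over all cells and were compared between sets of cells. All 24 were also above 1 CPM in each dissection taken alone. The other 11 are accounted for below.

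Cadherins are single-pass membrane proteins whose extracellular domains bind, with calcium, to cadherins of the neighbouring cell. Classical cadherins of type I and type II carry a cytoplasmic tail that binds catenins and through them the actin cytoskeleton. The non-clustered protocadherins stand each at a locus of their own, unlike the clustered protocadherins, which share one, and those of the delta-2 group bind regulators of actin assembly. Both families are known in the brain for sorting neurons, guiding axons and matching synaptic partners.

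The cells were serotonin neurons from 2 midbrain and hindbrain nuclei, the dorsal raphe (DR) and median raphe (MR), of C57BL/6J mice of both sexes, 40 to 45 days old. All mice carried the Cre reporter Ai14 and Sert-Cre, which drives Cre in cells that use the gene of the serotonin transporter, Sert. Cells that had once made Cre could thus be marked by tdTomato, including any that used the gene only during development. The pDR dissection took the principal DR without its caudal end, and gave 290 cells on 5 plates. The mixed dissection took the whole DR with its caudal end and, as the study states, the MR, and gave 709 cells on 11 plates. Every cell was sorted by tdTomato and made into 1 Smart-seq2 library. The labels tie no cell to an animal, so each dissection is 1 sample, no p-value was computed, and the spread between plates is given instead. The plates of 1 dissection may share animals, and each plate holds 1 dissection only, so differences between dissections and between their plates cannot be told apart.

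The serotonin genes Tph2, Fev, Slc6a4 and Slc18a2 were found together in 99.8% of the 999 cells. A read of Tph2 was a condition for a cell to be used, so that gene is no check of identity. The median number of reads on genes was 755926 in the pDR dissection and 869546 in the mixed dissection, with 96834 to 2780443 reads per cell. Of 5 endothelial genes Cldn5 had no read and the others were in 0.3 to 5.71% of cells, most in Ly6c1 (1.48 CPM in the pDR and 0.156 CPM in the mixed dissection). Of 5 microglial genes C1qa and Cx3cr1 had no read and the others were in 0.801 to 1.4% of cells. The 6 oligodendrocyte genes had a median summed level of 25.3 CPM in the pDR and 24.1 CPM in the mixed dissection, and a maximum of 77749 CPM in 1 cell of the mixed dissection. Of the astrocyte genes, Aldoc was at 915 CPM and in 99.3% of cells, and the other 4 were in at most 5.11% of cells each.

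The promoters of 5 members with some of the larger differences described below are shown first, to let their base composition be compared. They were chosen after their values were seen, from the table of RefSeq promoters (GRCm38.p6), among windows that lie outside the annotated gene body. Each line gives the 250 bases before the start, read in the direction of the gene, and capitals mark CpG dinucleotides. Pcdh10 lay at chr3:45378148-45378397 on the plus strand, Pcdh8 at chr14:79771313-79771562, Pcdh20 at chr14:88471397-88471646, Cdh8 at chr8:99416472-99416721 and Cdh6 at chr15:13173676-13173925, these 4 on the minus strand. Pcdh10 was low in Zeb2-positive cells, Pcdh8 and Pcdh20 were high in them, Cdh8 was high in Npy2r-positive cells and Cdh6 in Crh-positive cells.
Pcdh10: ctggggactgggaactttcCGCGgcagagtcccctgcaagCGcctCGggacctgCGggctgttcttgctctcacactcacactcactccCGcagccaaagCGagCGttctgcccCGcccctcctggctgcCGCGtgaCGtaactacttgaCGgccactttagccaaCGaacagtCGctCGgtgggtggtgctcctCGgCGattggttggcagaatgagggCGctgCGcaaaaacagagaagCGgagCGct
Pcdh8: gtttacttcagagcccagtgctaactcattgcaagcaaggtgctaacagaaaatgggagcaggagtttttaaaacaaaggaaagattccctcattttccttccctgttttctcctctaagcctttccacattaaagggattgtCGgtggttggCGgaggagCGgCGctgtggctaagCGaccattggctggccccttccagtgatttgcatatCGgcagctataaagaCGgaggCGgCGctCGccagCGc
Pcdh20: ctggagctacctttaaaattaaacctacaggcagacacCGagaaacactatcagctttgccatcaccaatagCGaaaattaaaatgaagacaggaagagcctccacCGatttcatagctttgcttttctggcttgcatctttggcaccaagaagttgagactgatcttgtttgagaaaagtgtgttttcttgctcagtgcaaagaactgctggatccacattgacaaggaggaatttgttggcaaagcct
Cdh8: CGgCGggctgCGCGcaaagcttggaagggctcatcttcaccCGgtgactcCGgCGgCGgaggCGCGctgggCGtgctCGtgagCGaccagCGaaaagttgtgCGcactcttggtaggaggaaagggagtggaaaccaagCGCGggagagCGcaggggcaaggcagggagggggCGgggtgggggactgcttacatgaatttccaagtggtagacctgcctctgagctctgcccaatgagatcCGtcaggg
Cdh6: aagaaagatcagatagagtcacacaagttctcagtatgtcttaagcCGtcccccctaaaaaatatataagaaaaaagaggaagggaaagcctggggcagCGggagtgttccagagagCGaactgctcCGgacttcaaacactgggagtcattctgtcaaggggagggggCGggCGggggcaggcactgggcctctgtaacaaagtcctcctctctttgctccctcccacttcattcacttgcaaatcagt

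These promoters differed in base composition. The Pcdh10 window held 22 CpG and the Cdh8 window 20. The Pcdh8 window held 11, the Cdh6 window 6 and the Pcdh20 window 3, beside a median of 6 over 32851 promoters of the same length. The table held 25 promoters of 22 of the 35 members, with a median GC content of 58.4% against 52.4% over all promoters. ZEB2 is a zinc-finger repressor that binds the E-box CACCTG. Those letters, searched on both strands with CAGGTG as the reverse, were in 17.2% of all promoters and in 3 of the 25 member promoters, those of Cdh7 (in 2 of its starts) and Pcdh15, and in none of the 5 windows printed. The letters TATAAA, searched the same way, were in 12.4% of all promoters and in 2 of the 25, those of Pcdh15 and Pcdh8. A match or its absence describes these windows only.

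Cdh13 dominated the families. Cdh13 encodes T-cadherin, which lacks the cytoplasmic tail and is held to the membrane by a lipid anchor. It had a mean level of 379 CPM over all cells, or 83.1 CPM per kb of its longest transcript. On the same scale per kb, Pcdh9 followed at 19.2, Cdh18 at 16, Cdh22 at 8.94 and Pcdh8 at 5.26. The classical N-cadherin gene Cdh2 was at 3.6 CPM per kb, next to Pcdh17 at 3.58 and Cdh8 at 3.47. The plate means of these last 3, per kb, overlapped. Cdh12 was lowest of the 24, at 0.429 CPM per kb. The longest transcript was used for every gene, and the transcripts in use in these cells were not measured.

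Detection followed the level only in part. Pcdh9 had a read in 97.8% of cells (95% exact interval 96.7 to 98.6%) and Cdh13 in 94.1% (92.4 to 95.5%). Cdh2, at a mean level of 17.4 CPM, was in 84% of cells, and Cdh22 and Cdh18 were in 83.7% and 83.3%. Pcdh11x, at 24.1 CPM, was in 26.3% of cells with up to 1098 CPM in a cell. Pcdh7, at 27.9 CPM, was in 47%, and Pcdh8, at 23.8 CPM, was in 46.7%. Pcdh11x, Pcdh7 and Pcdh8 were thus high in part of the cells and had no read in the rest. Intervals here and below cover counting error over cells only. Cells that share a plate or an animal are not independent, and the spread between plates and animals is not in the intervals. Reads without molecular identifiers are not independent molecules either. A cell had a read of 13 members in the median, and of 12 when every cell was thinned to 250000 reads.

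**Figure D1:**
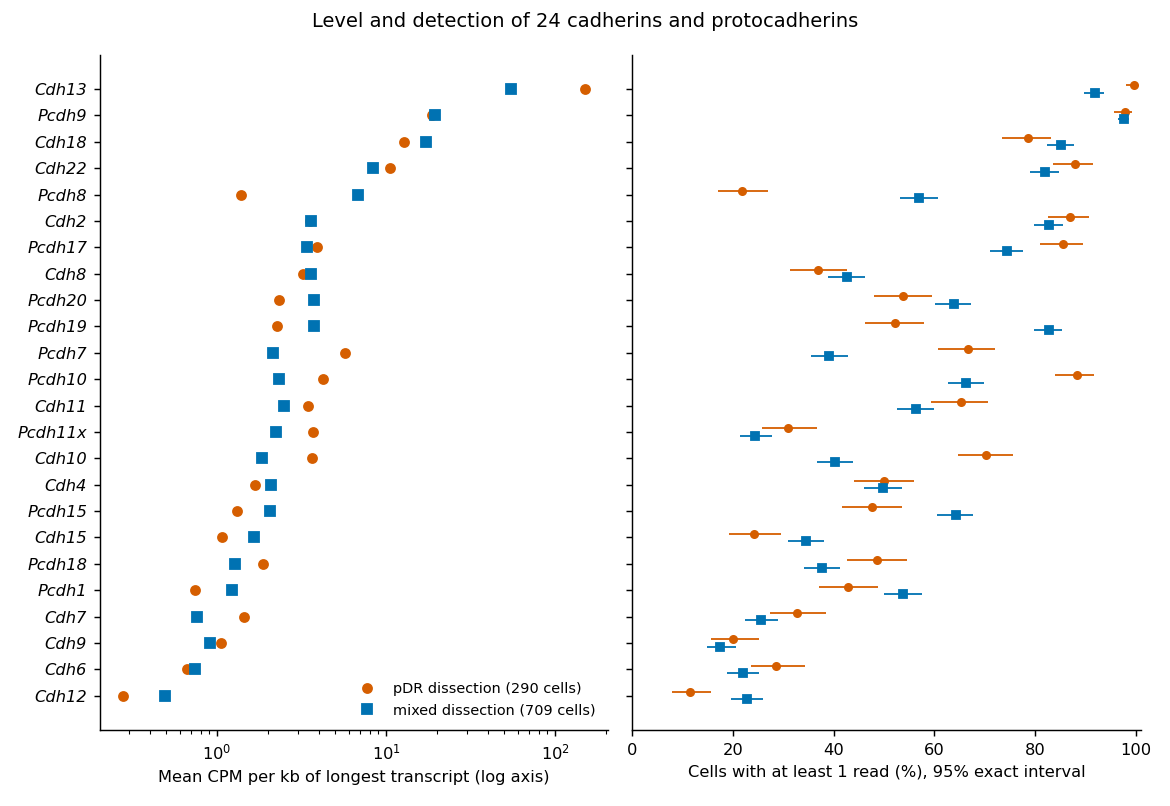
Left, mean CPM per kb of the longest transcript (log axis) of the 24 compared members in the pDR dissection (orange circles) and the mixed dissection (blue squares). Right, the percentage of cells with at least 1 read, with exact 95% intervals. Cdh13 stands above all others, and Pcdh8 shows the widest gap between the dissections.

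The members not compared were near or at 0. No read was found of Cdh1 (E-cadherin, of epithelia), Cdh5 (VE-cadherin, of endothelium), Cdh16 (of kidney) or Cdh19 (of the Schwann cell lineage), which allows a share of up to 0.3% of cells with a read. Cdh3 and Cdh26 had reads in 1 cell each, and Pcdh12, an endothelial protocadherin, in 4 cells. Cdh20 had reads in 18 cells, Cdh17 in 27, and Cdh23 and Cdh24 in 48 each. Cdh23 is the partner of Pcdh15 in the tip links of hair cells, and here Pcdh15 was in 59.4% of cells while Cdh23 was in 4.8%.

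The first comparison was between the dissections. The pDR cells had more Cdh13 and more Pcdh7, and less Pcdh8, than the cells of the mixed dissection. A gene was called where the log2 ratio of mean CPM plus 1 was at least 1 in size. This held for 4.63% of the 12834 genes compared and for 3 of the 24 members. With the added condition that plate means of the dissections did not overlap, it held for 2.53% of all genes and for the same 3 members. The median log2 ratio was -0.04 over the 24 members and 0.01 over all genes.

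Cdh13 had plate means of 730, 769, 529, 596 and 671 CPM in the pDR dissection, and from 115 over a median of 252 to 347 CPM in the mixed dissection. All pDR plates were above all mixed plates. The means over cells were 690 and 252 CPM, a log2 ratio of 1.45, and 99.7% (98.1 to 100%) against 91.8% (89.6 to 93.7%) of cells had a read. Cdh13 thus differed in its level more than in its share of cells.

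Pcdh7, a delta-1 protocadherin, had plate means of 51.3, 39.1, 41.9, 74.4 and 63.1 CPM in the pDR dissection, and from 4.12 over 18.8 to 29 CPM in the mixed dissection. The log2 ratio was 1.37, and 66.6% against 39.1% of cells had a read. Pcdh8, the delta-2 protocadherin also known as arcadlin, went the other way. Its pDR plates were at 11.1, 6.32, 1.58, 5.67 and 0.329 CPM, and its mixed plates ran from 19.1 over 26.5 to 62.2 CPM. The log2 ratio was -2.15, and 21.7% (17.1 to 26.9%) against 57% (53.2 to 60.7%) of cells had a read. For neither gene did the plate means of the dissections overlap.

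Pcdh10 and Cdh10 came close to the threshold. Pcdh10 was at 34.6 CPM in the pDR and 19.2 CPM in the mixed dissection, a log2 ratio of 0.82, and Cdh10 was at 13.8 and 6.95 CPM, a log2 ratio of 0.90. Both were counted as not called, though the lowest pDR plate of Cdh10, at 11.9 CPM, was above its highest mixed plate, at 11.2 CPM. Pcdh19 was at 23.4 CPM in the pDR and 38.4 CPM in the mixed dissection, and Pcdh9 was at 122 and 127 CPM. As sums over their members, the type I cadherins were at 31.3 and 36.2 CPM, the type II cadherins at 140 and 132 CPM, the delta-1 protocadherins at 210 and 172 CPM and the delta-2 protocadherins at 119 and 135 CPM.

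**Figure D2:**
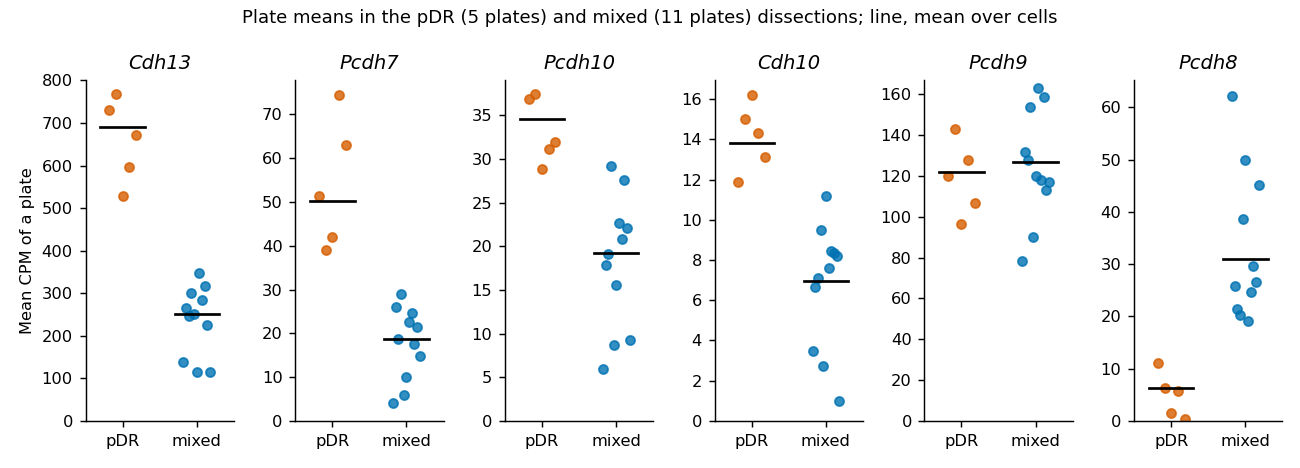
Mean CPM of each plate (points) for 6 members in the pDR dissection (orange, 5 plates) and the mixed dissection (blue, 11 plates), with the mean over cells as a line. Plate means of Cdh13, Pcdh7, Cdh10 and Pcdh8 do not overlap between the dissections, those of Pcdh9 do, and the lowest pDR plate of Pcdh10 is at 28.8 CPM beside a highest mixed plate of 29.2 CPM.

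The other members with a mean of at least 5 CPM did not reach the threshold. Among type II cadherins the means in the pDR and the mixed dissection were 34.8 and 47.4 CPM for Cdh18, 38.8 and 30.8 CPM for Cdh22, 14.8 and 16.4 CPM for Cdh8, 19.4 and 14 CPM for Cdh11 and 5.42 and 6.07 CPM for Cdh6. Among type I cadherins they were 17.2 and 17.5 CPM for Cdh2 and 10.7 and 13.3 CPM for Cdh4. Plate means ran from 12.6 to 19 CPM and from 12.5 to 34 CPM for Cdh2, the most even member between the dissections. Among protocadherins they were 44.9 and 39.4 CPM for Pcdh17, 33.5 and 20.3 CPM for Pcdh11x, 12.1 and 19.7 CPM for Pcdh20, 11.9 and 18.7 CPM for Pcdh15, 9.7 and 6.62 CPM for Pcdh18 and 4.03 and 6.66 CPM for Pcdh1.

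The dissections also differed in the classes of cells that they held. Zeb2, the gene of the repressor named above, had a read in 1.03% of pDR cells (0.214 to 2.99%) and in 20.7% of mixed cells (17.8 to 23.9%), and Irx2, a homeobox gene, in 3.45% and 21.7%. Without the cells that had a read of Zeb2 or Irx2, which left 277 and 413 cells, Cdh13 was at 704 and 353 CPM, a log2 ratio of 0.99. Pcdh7 was then at 51.8 and 28.2 CPM, a ratio of 0.85, and Pcdh8 at 6.09 and 20.3 CPM, a ratio of -1.59. The calls of Cdh13, just under the threshold, and of Pcdh7 thus ended when both kinds of cell were left out, and that of Pcdh8 held. All 3 calls held when only the Zeb2-positive or only the Irx2-positive cells were left out.

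Of the 12 comparisons, that of Zeb2-positive cells called the most members, with Cdh11, Pcdh7 and Pcdh10 much lower and Pcdh8 and Pcdh20 much higher. The class holds the 147 cells of the mixed dissection with a read of Zeb2, set against the other 562. Of the 24 members, 17 were called, where 8.28% of all genes were. Lower were 14 members and 5.66% of all genes, and higher were 3 members and 2.62% of all genes. With the same direction on all 11 plates there were 13 members, beside 5.02% of all genes. The median log2 ratio was -1.22 over the members and 0.04 over all genes. All 17 calls held when any 1 plate was left out.

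Cdh11, a type II cadherin, had the largest ratio. Its plate means ran from 0 over 0.351 to 4.7 CPM in Zeb2-positive cells and from 12 over 17.4 to 31.5 CPM in the others, without overlap. The means over cells were 0.976 and 17.4 CPM, a log2 ratio of -3.22, and 7.48% (3.79 to 13%) against 69% (65 to 72.8%) of cells had a read. Cdh10, of the same type, was at 0.582 and 8.61 CPM, a ratio of -2.60. Cdh7 was at 0.311 and 4.65 CPM, Cdh8 at 6.1 and 19.1 CPM, Cdh9 at 0.717 and 3.84 CPM and Cdh18 at 22.8 and 53.9 CPM, each lower on all 11 plates. Thus 6 of the 9 compared type II cadherins were lower and none higher. Cdh4, or R-cadherin, was at 3.24 and 15.9 CPM, lower on 10 of 11 plates, and was the single type I cadherin called. Cdh13 was at 97.6 and 293 CPM, a ratio of -1.58 on all 11 plates, with a read in 96.6% and 90.6% of cells.

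The protocadherins split. Pcdh7 had plate means from 0 over 0.845 to 7.58 CPM in Zeb2-positive cells and from 8.04 over 20.3 to 31.8 CPM in the others. Pcdh10, a delta-2 protocadherin, had 0 over 1.95 to 11.5 CPM and 12.1 over 24.4 to 32.7 CPM. Both had a log2 ratio of -3.07 and plate means that did not overlap. Pcdh10 had a read in 14.3% (9.07 to 21%) against 79.9% (76.3 to 83.1%) of cells. Pcdh18 was at 0.443 and 8.23 CPM, a ratio of -2.68, and Pcdh9, the most widely detected member, at 63.6 and 143 CPM, a ratio of -1.16, each on all 11 plates. Pcdh17 (18.5 and 44.8 CPM) was lower on 10 plates and Pcdh11x (7.16 and 23.7 CPM) on 8.

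Against these, 3 protocadherins were higher. Pcdh8 had plate means from 42 over 74.2 to 94.4 CPM in Zeb2-positive cells and from 13.8 over 18.3 to 30.6 CPM in the others. Its log2 ratio was 1.87, and 89.8% (83.7 to 94.2%) against 48.4% (44.2 to 52.6%) of cells had a read. Pcdh20 had 27.8 over 47.3 to 61.3 CPM and 6.61 over 12.5 to 15.9 CPM, a ratio of 1.83. Neither gene's plates overlapped. Pcdh15 was at 39.2 and 13.3 CPM, a ratio of 1.49, and higher on 9 of 11 plates.

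**Figure D3:**
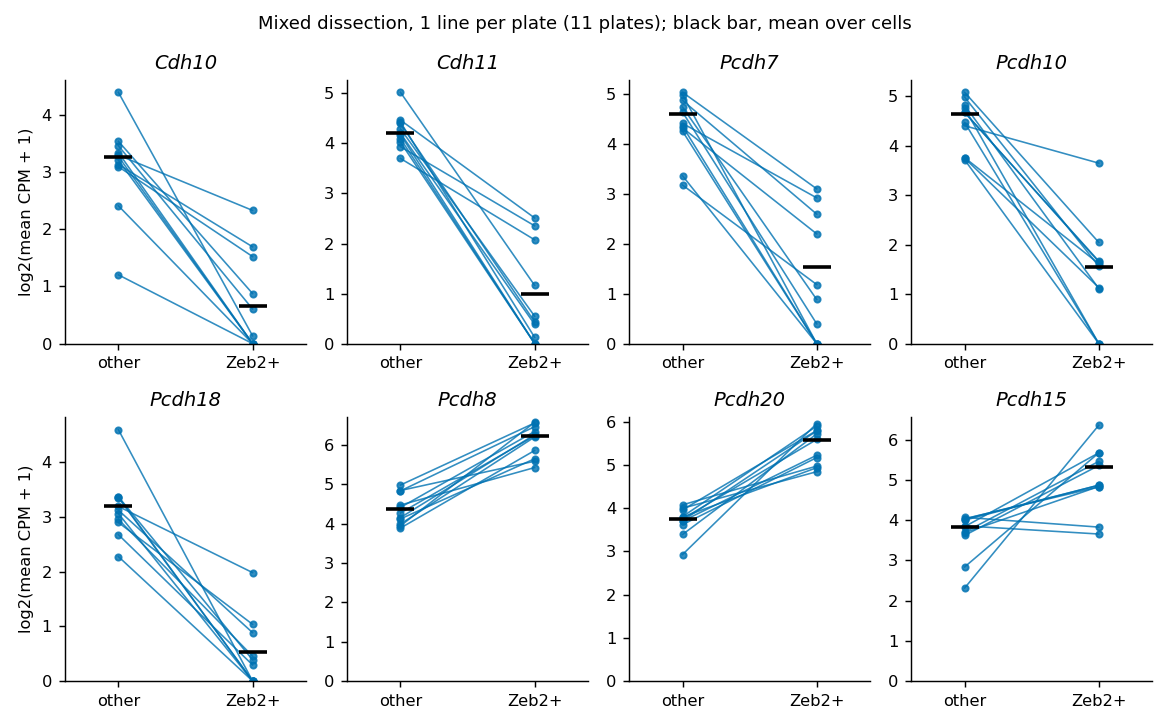
Level of 8 members, as log2 of the mean CPM plus 1, in other cells (left) and Zeb2-positive cells (right) of the mixed dissection. Each of the 11 plates is a line and black bars are means over cells. Cdh10, Cdh11, Pcdh7, Pcdh10 and Pcdh18 are lower in Zeb2-positive cells on every plate, Pcdh8 and Pcdh20 are higher on every plate and Pcdh15 is higher on 9.

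Zeb2-positive cells also had reads of fewer members, with a median of 11 against 14, or 10 against 13 after thinning to 250000 reads. The median number of genes after thinning was 8573 and 8659, and the median reads on genes were 884326 and 869119. The summed oligodendrocyte genes had a median of 27.4 CPM in Zeb2-positive cells and 22.9 CPM in the others. The summed astrocyte genes, nearly all Aldoc, had a mean of 328 and 941 CPM, and their part in the result was not tested. Without the 5% of cells with the highest summed markers of other cell types, Cdh11 was at 0.476 and 17.4 CPM, Pcdh10 at 1.76 and 24 CPM and Pcdh8 at 75.5 and 20.3 CPM. That left 145 Zeb2-positive and 538 other cells. The sum included Aldoc, at a mean of 915 CPM over all cells, so it ranked cells largely by Aldoc. The omission thus cannot show the part of other cell types. A pseudocount of 10 CPM in place of 1 left 8 of the 17 calls, namely Cdh11, Cdh13, Pcdh7, Pcdh8, Pcdh9, Pcdh10, Pcdh15 and Pcdh20. With the difference of mean log2(CPM+1) over cells in place of the ratio of means, 15 members were called, 13 of them shared. The calls of Cdh7 (-0.99), Cdh9 (-0.51), Cdh13 (-0.86) and Pcdh11x (-0.66) ended, and Cdh2 and Cdh22 were called.

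The partners of the members were described by list. Of the catenins and linkers, 10 of 11 could be compared and 1 was called, Jup (plakoglobin, a relative of beta-catenin), at 48.3 CPM in Zeb2-positive cells and 19.7 CPM in the others. None of the 8 genes that bind protocadherin tails and neither of the 2 sheddases, the proteases that cut cadherins from the surface, was called. Of the giant and atypical cadherins outside the families, 10 of 12 were compared. Fat1 was lower, at 1.07 and 8.51 CPM. So were Fat3 (10.7 and 26.4 CPM), Dchs2 (0.147 and 2.21 CPM) and the calsyntenin Clstn2 (10.5 and 29.7 CPM), while Dchs1 was higher (8.92 and 3.33 CPM). All 6 had the same direction on all 11 plates.

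Irx2-positive cells were nearly separate from the Zeb2-positive ones, with 5 cells in both classes. They had more Pcdh18 and Pcdh9 and less Pcdh15, Cdh6, Cdh13 and Pcdh7. These 6 members were called among the 154 positive and 555 other cells of the mixed dissection, where 2.73% of all genes were. The same direction on every plate was found for 3 members and 0.982% of genes. The median log2 ratio was 0.05 over the members and 0.02 over all genes, and the median reads on genes were 785380 and 910859.

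Pcdh15 was the clearest of them. Its plate means ran from 1.11 over 7.58 to 11.9 CPM in Irx2-positive cells and from 15 over 20.2 to 38 CPM in the others, without overlap. The log2 ratio was -1.53, and 47.4% (39.3 to 55.6%) against 68.8% (64.8 to 72.7%) of cells had a read. Cdh6 was at 2.06 and 7.19 CPM, a ratio of -1.42 on all 11 plates. Pcdh18 was at 14 and 4.56 CPM, a ratio of 1.44, higher on 10 plates and with a read in 69.5% (61.6 to 76.6%) against 28.8% (25.1 to 32.8%) of cells. Pcdh9 was at 212 and 103 CPM, a ratio of 1.03 on all 11 plates, which fell just under the threshold, at 0.96 to 1.00, without plate SER48, SER60 or SER63. Cdh13 was lower on 10 plates (124 and 288 CPM, a ratio of -1.21) and Pcdh7 on 9 (8.85 and 21.5 CPM, a ratio of -1.19). Pcdh18 thus stood lower in Zeb2-positive and higher in Irx2-positive cells, and Pcdh15 the other way round, each set against all other cells. Since those other cells include the opposite class, the comparisons share cells. Without the Zeb2-positive cells, the Irx2 calls of Pcdh15, Cdh6, Cdh13, Pcdh7 and Pcdh18 held and that of Pcdh9 ended. By the difference of mean log values, the call of Cdh6 ended, at -0.36, and Cdh2, Cdh18 and Pcdh19 were called. Of the lists, 1 gene was called, Fat1, at 14.7 and 4.82 CPM and higher on 10 plates.

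Grik1-high cells are the 5% of all cells with the most Grik1, which encodes a kainate receptor subunit, and are the end of a range and not a type. The last cell inside was at 35.5 CPM and the first outside at 34.7 CPM, and 24 cells lay within 20% of the limit. In the mixed dissection 46 cells were inside and 663 outside, with median reads of 764796 and 884326. Cdh8, Pcdh18, Cdh9 and Cdh10 were higher and Cdh13 was lower, so 5 members were called where 4.96% of all genes were. None had the same direction on every plate, beside 1.16% of genes. Cdh8 was at 57.3 and 13.6 CPM, a log2 ratio of 2.00 on 9 of 11 plates, and Cdh13 at 85.4 and 264 CPM, a ratio of -1.62 on 10 plates. Pcdh18 (23.8 and 5.42 CPM) was higher on 7 plates, Cdh9 (11.7 and 2.61 CPM) on 8 and Cdh10 (16.2 and 6.31 CPM) on 6. The call of Cdh10 ended without plate SER56, at 0.96, or SER60, at 1.00.

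The Grik1-high cells were mixed in other markers. Irx2 was found in 50% of them and Zeb2 in 28.3%. Without Irx2-positive cells, which left 23 cells inside, Cdh8 was at 19.6 and 13.2 CPM, a ratio of 0.54, and Cdh9 and Cdh10 were also no longer called, while Pcdh18 (10.5 and 4.3 CPM) and Cdh13 (134 and 294 CPM) still were. Without cells with a read of Zeb2 or Irx2, which left 11 cells inside, Cdh8 (40 and 15.6 CPM), Cdh9 (9.97 and 3.1 CPM) and Pcdh18 (21.9 and 5.57 CPM) were called and Cdh10 and Cdh13 (189 and 358 CPM) were not. With the top 10% by Grik1, Cdh10 and Cdh13 (151 and 268 CPM) were not called either. Without Zeb2-positive cells alone, all 5 were called, among 9 members where 8.53% of all genes were called. Of the 5 members, Pcdh18 was called under each of these choices, and Cdh10 under the last only. Of the lists, Fat1 (32.8 and 5.17 CPM, 8 of 11 plates) was higher, and Clstn2 (8.24 and 26.9 CPM, 10 plates) and the p120 catenin Ctnnd1 (0.452 and 2.08 CPM, 11 plates) were lower.

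Crh-positive cells, which have a read of the gene of corticotropin-releasing hormone, had more Cdh6 and Pcdh15 and less Pcdh18 and Cdh11 than the other cells of the mixed dissection. There were 39 of them against 670, with 5 plates that held at least 3. Here 7 members were called where 3.04% of all genes were, and 6 members and 1.88% of genes with the same direction on the 5 plates. The median log2 ratio was -0.22 over the members and -0.02 over all genes. Cdh6, a type II cadherin, was at 20.4, 73.5, 4.81, 24 and 36.7 CPM on these plates in Crh-positive cells and at 8.33, 2.53, 5.47, 2.44 and 3.59 CPM in the others. It was higher on 4 of the 5 plates, with SER60 as the exception. The means were 37.6 and 4.24 CPM, a ratio of 2.88, with a read in 43.6% (27.8 to 60.4%) against 20.6% (17.6 to 23.9%) of cells.

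Pcdh15 was at 35.3, 58.2, 65.2, 35.4 and 57.6 CPM on the plates in Crh-positive cells and at 13.3, 9.87, 10.2, 15 and 11.7 CPM in the others, so every positive value was above every other value. The means over all cells were 46.6 and 17 CPM. Lower were Pcdh18, with 0.143 and 6.99 CPM and a read in 1 of the 39 cells (2.56%, 0.0649 to 13.5%), Cdh11 (3.01 and 14.6 CPM), Pcdh17 (11.2 and 41 CPM), Cdh4 (4.79 and 13.8 CPM) and Cdh9 (1.11 and 3.31 CPM). The call of Cdh9, at -1.03, ended without plate SER51, SER57 or SER63. By the difference of mean log values, Cdh4 (-0.97) and Cdh9 (-0.17) were not called, and over all cells of both dissections Pcdh17 was not. Crh-positive cells had more reads, with a median of 1102073 against 857668. Slc17a8, a class described below, had a read in 84.6% of them and in 73.1% of all mixed cells. Pcdh18 was called lower for that class too. Of the lists, Dchs2 was called, at 0.245 and 1.87 CPM.

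In the pDR dissection, 41 Crh-positive and 249 other cells were compared. There 5 members were called where 2.47% of genes were, and 3 members and 1.25% of genes with the same direction on all 5 plates. Cdh6 was at 3.57, 6.22, 28, 21.6 and 14.7 CPM on plates SER12, SER13, SER25, SER39 and SER40 in Crh-positive cells, and at 6.06, 3.66, 5.78, 3.85 and 2.22 CPM in the others. It was higher on 4 of 5 plates, with a log2 ratio of 1.02 that fell below the threshold without SER25 (0.90), SER39 (0.74) or SER40 (0.85). Pcdh19, an X-linked delta-2 protocadherin, was at 6.46 and 26.2 CPM, a ratio of -1.86, and its plates did not overlap. Pcdh8 (1.56 and 7.01 CPM) and Cdh11 (8.43 and 21.3 CPM) were also lower on all plates, and Pcdh18 (3.69 and 10.7 CPM) on 4. By the difference of mean log values, Cdh6 (0.63), Cdh11 (-0.93) and Pcdh8 (-0.61) were not called in the pDR. By ratios of means, Cdh11 and Pcdh18 were lower and Cdh6 higher in Crh-positive cells of both dissections. Pcdh15 was at 17.8 and 11 CPM in the pDR, a ratio of 0.65. Whether the dissections differed in these contrasts was not tested. Of the 41 Crh-positive pDR cells, 31 (75.6%) had a read of Gad1 or Gad2, as had 63.1% of all pDR cells. Pcdh19 was also called lower in those Gad-positive cells, as given below. The parts of the 2 classes were not separated. Fat1 (1.81 and 5.31 CPM) was lower on all 5 plates and Fat4 (3.67 and 1.32 CPM) higher on 4.

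Npy2r-positive cells, with a read of the gene of a neuropeptide Y receptor, had more Cdh8 in both dissections. In the mixed dissection 160 cells were set against 549, on 10 plates, with median reads of 992492 and 826527. There 5 members were called where 2.28% of genes were, and 4 members and 1.26% of genes with the same direction on every plate. Cdh8, a type II cadherin known from sensory circuits, had plate means from 23.4 over 31.5 to 76 CPM in positive cells and from 3.06 over 12.1 to 21.7 CPM in the others, without overlap. The log2 ratio was 1.38, with a read in 82.5% (75.7 to 88%) against 31% (27.1 to 35%) of cells. In the pDR dissection, with 105 and 185 cells, Cdh8 was the 1 member called where 1.27% of genes were, and 0.662% with the same direction on every plate. It was at 32.7, 29.6, 16.3, 25 and 11.3 CPM in positive cells and at 10.7, 2.11, 15, 14.5 and 5.99 CPM in the others on plates SER12, SER13, SER25, SER39 and SER40. The ratio was 1.52, with a read in 62.9% (52.9 to 72.1%) against 22.2% (16.4 to 28.8%) of cells. Slc17a8 had a read in 68.6% of these Npy2r-positive cells and in 45.2% of all pDR cells. Cdh8 was also called for Slc17a8 there, as given below.

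Other members were lower in Npy2r-positive cells of the mixed dissection. Pcdh20 was at 6.1 and 23.7 CPM, a ratio of -1.80 on all 10 plates, which ran from 1.31 over 5.62 to 9.73 CPM and from 16.6 over 21.3 to 40.2 CPM. Npy2r and Zeb2 were found together in 1 cell, so the other cells include nearly all Zeb2-positive ones. Without the Zeb2-positive cells Pcdh20 was at 6.14 and 15.1 CPM, a ratio of -1.17. Cdh12 was at 0.86 and 3.56 CPM and Pcdh18 at 3.14 and 7.63 CPM, both lower on all 10 plates. Pcdh11x was higher on 8 plates, at 34.1 and 16.3 CPM. Slc17a8 had a read in 91.9% of the Npy2r-positive cells and in 73.1% of all mixed cells. Pcdh11x and Pcdh18 were called in the same directions for Slc17a8. The calls of Pcdh11x (1.02) and Pcdh18 (-1.06) were close to the threshold. That of Pcdh11x ended without plate SER48, SER56, SER57 or SER60, with ratios of 0.90 to 0.99, and that of Pcdh18 without SER50 (3.36 and 7.69 CPM), SER60 (-0.97) or SER63 (-0.96). Without the Zeb2-positive cells Pcdh11x was at 0.78, and by the difference of mean log values Cdh12 (-0.62) and Pcdh18 (-0.85) were not called. No gene of the lists was called in either dissection.

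Slc17a8 encodes the vesicular glutamate transporter Vglut3, and Gad-positive cells had a read of Gad1 or Gad2, the genes of the enzymes that make GABA. In the pDR dissection, Slc17a8-positive cells had more Pcdh15 and Pcdh11x and less Cdh13 than the others, and Gad-positive cells had more Cdh13 and less Pcdh19, Pcdh15 and Pcdh11x. Slc17a8 was found in 131 cells and not in 159, and Gad in 183 and not in 107, with 47 cells in both classes. For Slc17a8, 5 members were called where 2.49% of genes were, and 4 members and 1.9% of genes with the same direction on all 5 plates. For Gad, 8 members were called where 3.28% of genes were, and 7 members and 2.59% of genes with the same direction on all plates. Both contrasts use the same 290 cells, so their values are given side by side and not counted as separate evidence.

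Cdh13 was at 399, 543, 289, 288 and 467 CPM in Slc17a8-positive cells on plates SER12, SER13, SER25, SER39 and SER40 and at 980, 927, 833, 795 and 886 CPM in the others, a log2 ratio over all cells of -1.12. In Gad-positive cells it was at 946, 992, 738, 808 and 851 CPM and in the others at 318, 361, 239, 313 and 360 CPM, a ratio of 1.49. Neither comparison overlapped. Cdh13 was found in nearly all cells of both classes, so the difference was in its level.

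Pcdh15 went the other way. In Slc17a8-positive cells it was at 19.5, 19.2, 20.4, 45.6 and 20.6 CPM and in the others at 3.23, 3.35, 4.55, 7.08 and 1.97 CPM, a ratio of 2.29, with a read in 73.3% (64.8 to 80.6%) against 26.4% (19.7 to 34%) of cells. In Gad-positive cells it was at 5.98 CPM and in the others at 22.1 CPM, a ratio of -1.73. Pcdh11x, the X-linked delta-1 protocadherin, was at 57.5 and 13.7 CPM for Slc17a8, a ratio of 1.99, and at 18.3 and 59.5 CPM for Gad, a ratio of -1.65. Without plate SER12, on which Slc17a8-negative cells held 32 CPM, these became 3.35 and -2.27.

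Pcdh19 was lower in Gad-positive cells, at 7.68, 12.8, 10, 16.5 and 12 CPM on the 5 plates against 38.9, 58.2, 26.9, 50.2 and 46.7 CPM in the others. The ratio was -1.94, with a read in 34.4% (27.6 to 41.8%) against 82.2% (73.7 to 89%) of cells. Cdh18 was also lower, at 24.4 and 52.6 CPM, and its plates did not overlap. Cdh9 (5.35 and 0.936 CPM) and Cdh10 (17.2 and 8.01 CPM) were higher on all plates. The call of Cdh10, at 1.02, ended without SER12 (0.94), SER13 (0.97) or SER25 (0.89). Pcdh8 was at 3.86 and 10.3 CPM, but was lower on 2 of the 5 plates only, and its ratio of -1.22 became 0.15 without SER12. In Slc17a8-positive cells Cdh8 (22 and 8.8 CPM) was higher on 4 plates and Pcdh18 (5.62 and 13.1 CPM) lower on all 5. By the difference of mean log values Cdh9 (0.82) and Pcdh8 (-0.30) were not called for Gad, and without cells with a read of Irx2 Cdh10 and Cdh18 were not. The call of Cdh8 ended without SER12 (0.73) and that of Pcdh18 without SER25 (-0.81). Fat3 was the 1 gene of the lists called, for Slc17a8, at 28.4 and 13.4 CPM.

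In the mixed dissection fewer members were called for these classes. Slc17a8 was found in 518 cells and not in 191. There 2 members were called where 1.48% of genes were, and 1 member and 0.249% of genes with the same direction on all 11 plates. Pcdh18 was at 4.21 and 13.2 CPM, a ratio of -1.44, with plates from 0.662 over 4.42 to 6.04 CPM and from 6.67 over 12.4 to 26.7 CPM that did not overlap. Pcdh11x was at 25.3 and 6.74 CPM, a ratio of 1.76 on 9 plates, and a difference of mean log values of 0.64. Gad was found in 164 cells and not in 545, and 1 member was called where 1.32% of genes were. The cell with 77749 CPM of oligodendrocyte genes was Gad-positive. Without the 5% of cells with the highest summed markers of other cell types, a sum led by Aldoc, Cdh10 was at 11.5 and 5.21 CPM for Gad, and Pcdh18 was also called. For Slc17a8, Pcdh18 and Pcdh11x were then still called, and Cdh10 and Cdh11 were added. Cdh10 was at 12.3 and 5.33 CPM, a ratio of 1.07 on 9 plates that became 0.96 without SER56 and was 0.94 as a difference of mean log values. With the same direction on every plate there was 0.187% of genes and no member. Cdh13 was at 398 and 208 CPM in Gad-positive and other cells, a ratio of 0.93 with the direction seen in the pDR on 10 of 11 plates, and Pcdh15 at 16.8 and 19.2 CPM, a ratio of -0.19. The differences between the dissections in these contrasts were not tested. No gene of the lists was called for either class.

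**Figure D4:**
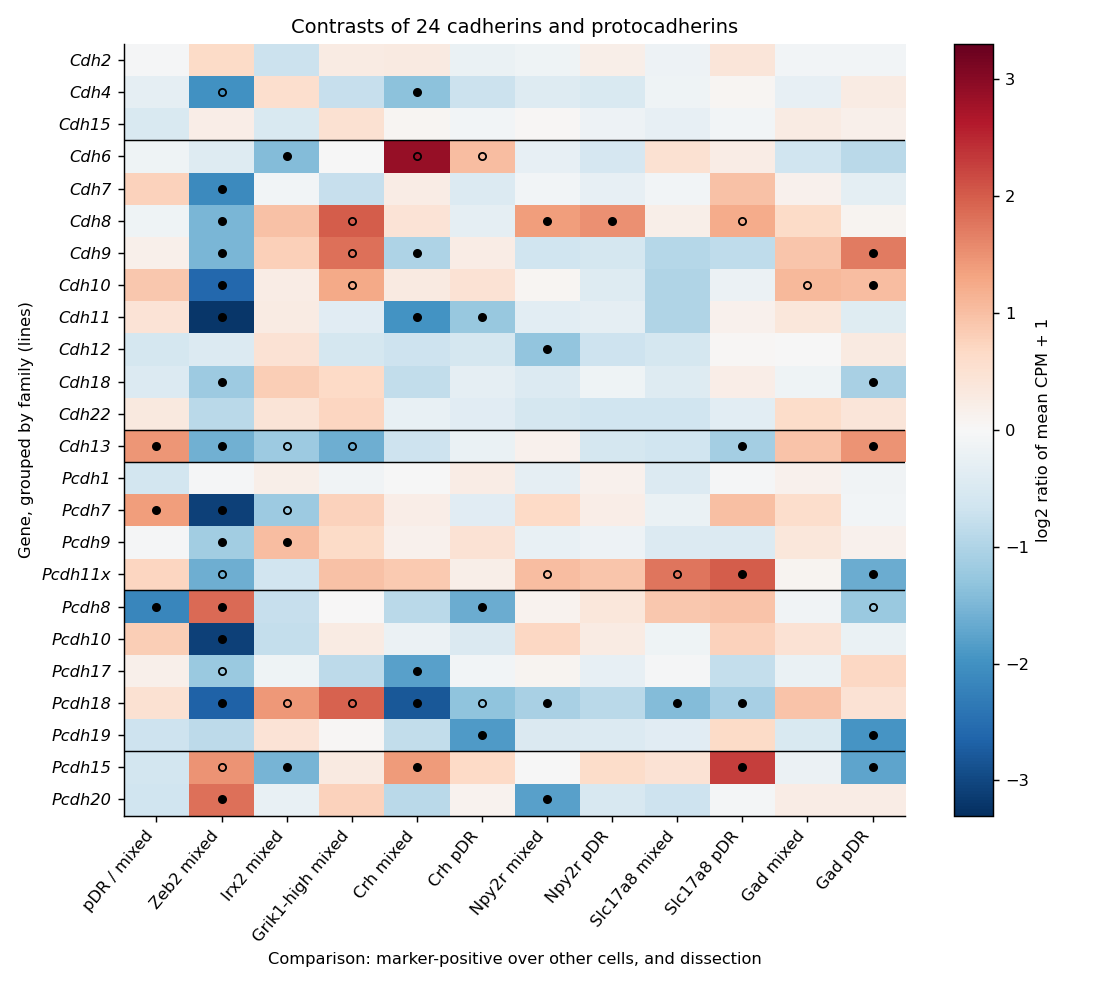
Log2 ratio of mean CPM plus 1 (colour) of the 24 compared members (rows, grouped by family) in 12 comparisons (columns), each of marker-positive over other cells within 1 dissection except the first, which is pDR over mixed. Filled circles mark ratios of at least 1 in size with the same direction on every plate (first column, plate means without overlap) and open circles those of at least 1 without it. The Zeb2 column holds the most marks, 17, and Cdh2, Cdh15, Cdh22 and Pcdh1 hold none.

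**Figure D5:**
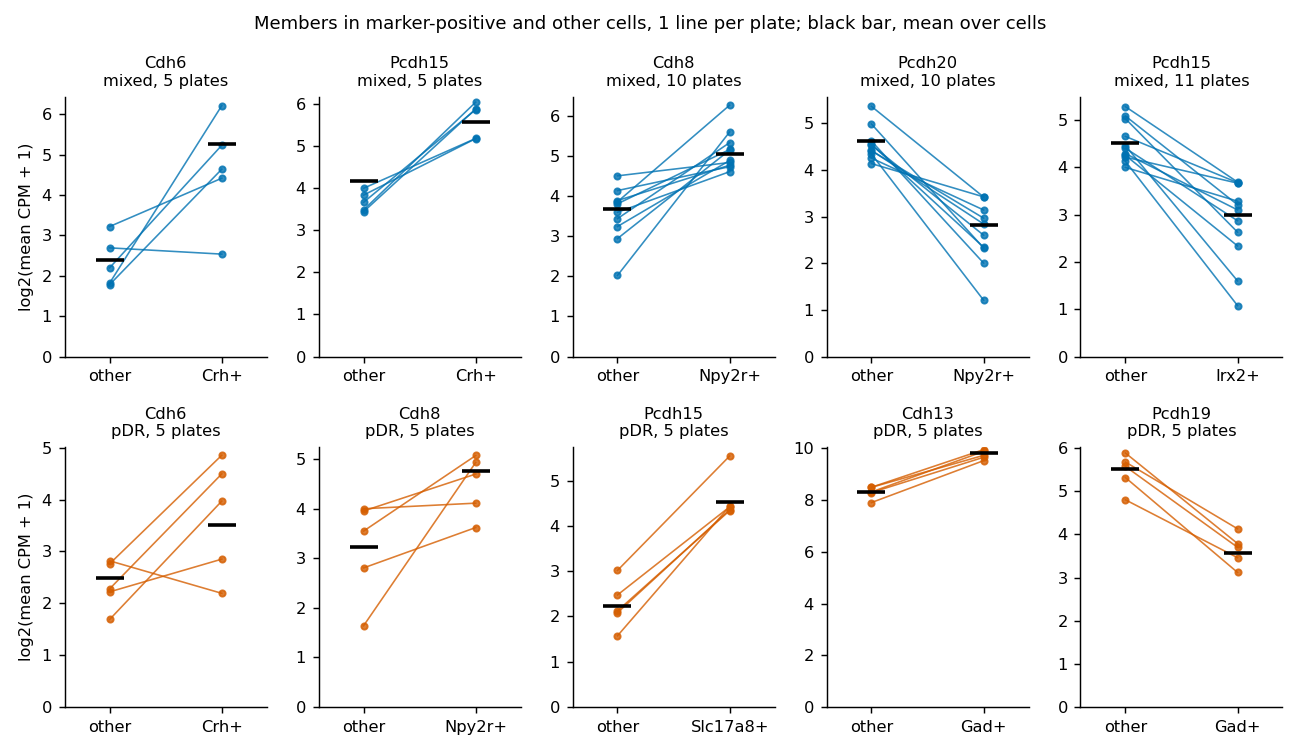
Level of members, as log2 of the mean CPM plus 1, in other cells (left of each panel) and marker-positive cells (right) of the mixed dissection (blue) and the pDR dissection (orange). Each line is a plate with at least 3 cells on each side and black bars are means over cells. On every plate, Cdh8 is higher in Npy2r-positive cells, Pcdh15 in Crh-positive (mixed) and Slc17a8-positive (pDR) cells and Cdh13 in Gad-positive cells (pDR), while Pcdh20 is lower in Npy2r-positive, Pcdh15 in Irx2-positive and Pcdh19 in Gad-positive cells. Cdh6 is higher in Crh-positive cells on 4 of 5 plates in each dissection.

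Over the 12 comparisons, 20 of the 24 members were called at least once, as were 16.7% of all genes compared. Pcdh18 was called most often, in 8 comparisons (2 higher and 6 lower), followed by Cdh13 in 6, and Cdh8, Pcdh11x and Pcdh15 in 5 each. Cdh2, Cdh15, Cdh22 and Pcdh1 were called in none, though Cdh2 and Cdh22 were under the alternative named above. The largest ratio of Cdh22 was -0.88, in Zeb2-positive cells, and that of Cdh2 was -0.72, in Irx2-positive cells, where the plate means of Cdh2, from 7.69 over 11.5 to 14 CPM against 14.6 over 16.8 to 37.5 CPM, did not overlap. Comparisons of the same dissection share their cells, so these counts describe the 24 members and are not independent of each other. For the dissections, Adam10, the protease that sheds N-cadherin, was called (51.7 CPM in the pDR and 19.1 CPM in the mixed dissection, plates without overlap) and Dchs1 (1.67 and 4.49 CPM).

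A few pairs of members varied together or in opposition from cell to cell. Pearson's r of ln(CPM+1) over the 999 cells is given as a description, since the cells share their dissection, plate and depth. Over the 276 pairs of the 24 members the median r was 0.03, with 5 pairs over 0.3 and 5 under -0.3. Pcdh7 and Pcdh10 had the highest r, 0.55, with 0.53 in the mixed and 0.47 in the pDR dissection and a positive sign on all 16 plates. Cdh18 and Pcdh19 followed with 0.43, and Pcdh7 and Pcdh11x with 0.35, both positive on 16 plates. Cdh13 and Pcdh7 had 0.31 over all cells but -0.07 in the pDR dissection alone. Among negative pairs, Pcdh15 and Pcdh18 had -0.35, negative on 16 plates, Pcdh8 had -0.35 with Pcdh7 and with Pcdh10 but -0.20 and -0.02 in the pDR dissection alone, and Cdh13 and Pcdh19 had -0.34, with -0.48 in the pDR dissection.

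The nearest genes of the 6 members with the largest class contrasts were sought among 9720 genes with a mean of at least 5 CPM. For Pcdh10 these were Pcdh7, Cbln4 (0.52), which encodes a secreted synapse organiser, and Chga (0.50), and the lowest r was with Zeb2, at -0.48. For Pcdh7 they were Pcdh10, Cbln4 (0.54) and Adgrl2 (0.52), and the lowest was with Nr2f2, at -0.58. For Cdh11 they were Htr1d, a serotonin receptor gene (0.43), Atp2b1 (0.42) and Pitpnc1 (0.41). For Pcdh18, Alcam (0.41) and Fam19a2 (0.40) were among them, and for Cdh10 they were Fam19a2, Pde1a and Fgfr1 (0.40 each). Cdh6 had no r over 0.21, with Cacna2d3.

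Members on the same chromosome were compared in Zeb2-positive cells. Cdh6, Cdh9, Cdh10, Cdh12 and Cdh18 lie in this order on chromosome 15, from base 13028701 to base 23474418 (GRCm38). Of these, Cdh9, Cdh10 and Cdh18 were called lower and Cdh6 (4.59 and 6.46 CPM) and Cdh12 (2.06 and 3.18 CPM) were not called. Pcdh8, Pcdh17, Pcdh20 and Pcdh9 lie on chromosome 14 between bases 79766775 and 93890679, and of these Pcdh8 and Pcdh20 were higher and Pcdh17 and Pcdh9 lower. Reads were counted without regard to strand, so where 2 genes overlap on opposite strands their values cannot be told apart.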

How the data were processed

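The values are CPM per gene and cell, deposited by the authors in 1 table. Per the labels and the submitters' processing notes, reads were demultiplexed with bcl2fastq 2.19.0.316, aligned to mm10 (GRCm38) with STAR 2.6.1a and counted without strand by HTSeq 0.11.2, genes of the Y chromosome were removed, and the study scaled the counts to 1000000 per cell. The annotation version is not given in the sources used here. In every cell 100% of the values were whole multiples, within 0.001, of the value of 1 read, so reads were recovered for detection and thinning. Of 1536 labelled cells, 999 are in the table. All 999 met the conditions of at least 300 genes, 50000 reads and 1 read of Tph2. The other 537 were not analysed here. No doublet caller was run, since cells were sorted singly.

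Members, lists, classes and tests were chosen with earlier results of these data known. A class is positive from 1 read of its marker, or the top 5% by Grik1. Contrasts are log2 ratios of mean CPM with a pseudocount of 1, for 12834 genes of at least 1 CPM, recomputed on plates with at least 3 cells on each side. The pDR dissection was used for classes with at least 20 cells on each side. No count model and no test over cells was run, as each dissection is 1 sample. Named are members past a log2 ratio of 1 in size, partner genes past it, and the 3 nearest genes of the 6 members with the largest contrasts, of which 1 is not reported here. Python 3.11.15, NumPy 2.4.6, SciPy 1.17.1, pandas 2.3.3 and matplotlib 3.10.9 were used, and the contrasts and the thinning were tested on simulated data. Gene coordinates and lengths are from GENCODE M21, and promoters from RefSeq (GRCm38.p6). Alternatives were other pseudocounts, no filter, plate means, mean log values, CPM without the 100 highest genes, thinning, a read minimum, other limits of a class, and the omission of plates or of cells with markers of other types. These markers included Aldoc, which was found in nearly all cells. The omission of cells with a read of Zeb2 or Irx2 was chosen after seeing the data.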

Additional observations from a re-analysis of the deposited data

Results flagged for a closer look

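Among the plate means of the 24 compared members on the 5 pDR plates, 2 lay far from the other 4 by Dixon's criterion, which marks about 1 in 20 groups by chance. Both were on plate SER39, the smallest, with 28 cells. Cdh7 was at 21 CPM there and between 3.91 and 6.92 CPM on the others, with reads in 12 of the 28 cells and up to 212 CPM in a cell. Pcdh15 was at 22.2 CPM there and between 9.9 and 13.4 CPM on the others, with reads in 13 of the 28 cells.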

How the results depend on the processing

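Of 1455 alternative values of the 65 called contrasts, 1403 kept their direction and moved by less than 1 SD between plates, 51 moved further and 1 changed sign. These values include the runs with 1 plate left out, which change the cells little. A value within 1 SD can still have lost its call. Pcdh8 in Gad-positive cells of the pDR dissection, at -1.22, was between -1.69 and 0.15 when 1 plate was left out, with 0.15 without SER12. Of 164 counts of called members, 123 were within 1.5 times the main count.

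The numbers of members that moved were these, and the shares of all genes called moved too. With a pseudocount of 10 CPM the share was 2.18% (main 8.28%) for Zeb2, 0.655% (2.73%) for Irx2 and 0.958% (4.96%) for Grik1-high. By differences of mean log values it was 4.09% (4.63%) between the dissections and 4.25% for Grik1-high. With the top 10% by Grik1 it was 1.99%. Shares for the other counts of this paragraph are not given. With a pseudocount of 10 CPM, 8 members (main 17) were called for Zeb2, 1 (6) for Irx2, 3 (5) for Grik1-high, 3 (7) for Crh, 1 (5) for Crh in the pDR, 1 (5) for Npy2r, 0 (1) for Npy2r in the pDR, 1 (2) for Slc17a8, 3 (5) for Slc17a8 in the pDR, 0 (1) for Gad and 4 (8) for Gad in the pDR. With a pseudocount of 0.1 CPM there were 2 for Npy2r in the pDR, 5 for Slc17a8, 9 for Slc17a8 in the pDR and 3 for Gad. With differences of mean log values there were 6 (3) between the dissections, 9 for Grik1-high, 3 for Crh in the pDR, 4 for Npy2r in the pDR, 5 for Slc17a8 and 9 for Slc17a8 in the pDR. Plate means gave 5 for Slc17a8 and 3 for Gad, thinning to 250000 reads 4 for Slc17a8 and 2 for Npy2r in the pDR, and all cells of both dissections 5 for Slc17a8 and 3 for Gad. Positive cells from 10 CPM gave 2 for Npy2r in the pDR, and the top 10% by Grik1 gave 3. Without the 5% of cells richest in markers of other types, Aldoc included, there were 4 for Slc17a8 and 2 for Gad.

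Without cells with a read of Zeb2 there were 9 for Grik1-high (beside 8.53% of all genes), 4 for Slc17a8 and 4 for Gad. Without those with a read of Irx2 there were 3, 5 and 2 in the same order. Without either there were 8, 7 and 2, with 1 between the dissections (beside 3.43% of all genes). Shares for the other counts of this paragraph are not given. With 1 plate left out, counts ran from 3 to 5 for Npy2r, 1 to 3 for Npy2r in the pDR, 2 to 5 for Slc17a8 and 0 to 2 for Gad; the cause was not tested. A higher pseudocount shrinks the ratios of low genes by its construction. No paired analysis was possible because the dissections share no plate and no animal named in the labels; classes were set against other cells within each plate instead.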
